A study of Mus musculus with 7 samples.

Results

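The splicing factor genes are the protein-coding genes whose symbols begin with Srsf, Sf3a, Sf3b, Snrp, Hnrnp, Prpf or U2af, with a digit after Srsf, Sf3a, Sf3b and Prpf. Of 21924 protein-coding genes in GENCODE M21, 68 met this rule: 11 Srsf, 9 Sf3, 12 Snrp, 20 Hnrnp, 13 Prpf and 3 U2af genes. Each gene was represented by the accessible region that overlapped the 200 bp on either side of any of its transcription start sites. A promoter region was found for 67 of the 68 genes, and for 13018 of all protein-coding genes. For 5 genes with more than 1 such region (Hnrnpf, Hnrnpm, Hnrnpu, Prpf6 and Srsf11) the region with the higher mean log2 CPM was used.

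The study asked how chromatin accessibility of the mouse liver differs with age, using ATAC-seq, in which the Tn5 transposase cuts and tags DNA that is not packed against nucleosomes. Liver nuclei came from male C57BL/6N mice of 3 months (young, 3 samples) or 18 months (aged, 4 samples), with no treatment. By the design given with the data, the 4 aged samples came from 3 animals, with 2 lobules of 1 animal taken as separate samples, and the labels do not say which these are, while a legend of the paper counts 4 aged mice. Counts were given for 55680 regions, of which 15422 were promoter regions, and the total count was 10384725, 25461110 and 5709327 in the young and 11717992, 5108283, 4474652 and 8397956 in the aged samples. The p-values below therefore measure the spread between these samples, of which 2 aged ones share an animal by that design, and the young libraries hold both the deepest library and 1 of the shallow ones.

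Splicing removes introns from pre-mRNA in the spliceosome, which is built on each intron from small nuclear ribonucleoproteins (snRNPs) and many further proteins. SR proteins and hnRNPs bind the pre-mRNA and steer which sites are used, U2AF and the SF3 complexes mark the 3′ splice site and the branch point, Sm proteins form the ring of the snRNPs, and PRPF proteins bring in the tri-snRNP and carry the complex through activation. Nearly all of these genes are expressed in every cell type, the liver included, and many of their promoters are CpG islands.

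The liver label was checked against marker genes. All 15 hepatocyte markers had a promoter region, Apoa1 being the most abundant, and their summed level was 1186, 1329 and 1304 CPM in the young and 1465, 1408, 1684 and 1627 CPM in the aged samples. Each aged sample was above each young one. Ahsg (0.57 ± 0.12, SE, adjusted p = 0.020) and Apoa1 (0.53 ± 0.13, SE, adjusted p = 0.033) were higher in all 4 aged samples, and the 13 other markers did not pass. Both calls were lost without aged replicate 1 (adjusted p = 0.064 and 0.092), aged replicate 3 (0.067 and 0.106), young replicate 1 (0.074 and 0.122) or young replicate 2 (0.052 and 0.078), and that of Apoa1 also without young replicate 3 (0.057). Offsets against region strength ended both as well, with log2 fold changes of 0.28 (Ahsg, adjusted p = 0.17) and 0.08 (Apoa1, adjusted p = 0.77). Of 22 alternatives, 16 called Ahsg and 12 called Apoa1. Markers of other cells were sparse. Of 10 each, 2 macrophage, 7 endothelial, 3 stellate, 1 lymphocyte and 4 cholangiocyte markers had a promoter region, with Spi1, Stab2, Reln and Lck as the most abundant of the first 4 lists, and none of these markers passed the adjusted test in either direction.

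The summed macrophage level was 9.16, 7.30 and 7.56 CPM in the young and 3.51, 3.33, 6.54 and 6.87 CPM in the aged samples. The stellate level was 29.1, 26.7 and 26.6 CPM in the young and 23.5, 16.1, 16.3 and 19.1 CPM in the aged samples. Both sums were lower in every aged than in every young sample. The endothelial sum was 104, 102 and 95.4 CPM in the young and 83.8, 78.5, 107 and 130 CPM in the aged samples, and the lymphocyte sum 11.7, 10.6 and 12.8 against 11.95, 11.2, 10.7 and 13.6 CPM, with overlapping groups in each case. No promoter region was found for defining genes such as Adgre1, Pecam1, Dcn, Ptprc and Krt19. The part of cell composition in the values below was not tested, and in bulk tissue fewer cells of a type and less accessible DNA per cell cannot be told apart.

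None of the 67 promoter regions passed an adjusted p of 0.05 in edgeR's quasi-likelihood test, in either direction, where 5.74% of all regions passed (2.44% higher and 3.30% lower in aged liver) and 6.54% of promoter regions (4.48% higher and 2.06% lower). At an unadjusted p under 0.05, 15 genes were higher and 2 lower with age. That is 22.4% and 2.99% of the genes, against 23.0% and 9.13% of promoter regions and 11.9% and 12.7% of all regions. Every aged sample was above every young sample at 13 genes (19.4%) and below at 2 (Srsf9 and Prpf31, 2.99%), while 20.4% and 8.88% of promoter regions and 10.2% and 11.6% of all regions had such groups.

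Other tools placed a few of the genes past the threshold. DESeq2 called 2 genes higher, Hnrnpl and Snrpd2 (4.96% of all regions were higher), and limma voom called Hnrnpl alone (3.95% of all regions). With offsets that remove the dependence of each library on GC content, 9 genes were called higher (6.28% of all regions). Hnrnpl was also the 1 gene called without aged replicate 2 (adjusted p = 0.041, 2.61% of all regions higher) and with aged replicates 2 and 4 added into 1 sample (adjusted p = 0.034, 3.89% of all regions higher). No gene was called lower in these 5 fits. The number of higher and lower regions in the whole table was 1360 and 1838, but 543 and 2931 with scaling by total counts alone, 2760 and 1931 with DESeq2, and 3497 and 2043 with GC offsets.

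The median log2 fold change (aged over young) of the 67 genes was 0.15, with 50 of them above 0 (74.6%), next to 0.09 over all promoter regions (61.1% above 0) and -0.04 over all regions. With scaling by total counts alone the genes' median was 0.027, and the same scaling took the median of all regions from -0.035 to -0.15 and that of promoter regions to -0.025. With offsets that level each library against the strength of the regions, the median turned to -0.069, against -0.029 over promoter regions and 0.0094 over all regions, and 18 of the 67 genes were above 0. Relative to the mean over promoter regions, the mean log2 CPM of the genes was higher by 0.93, 0.89 and 0.78 in the young and by 1.01, 0.88, 1.03 and 0.94 in the aged samples. Aged replicates 1, 3 and 4 exceeded each young sample, and aged replicate 2 lay below young replicates 1 and 2. The share of each library's counts in promoter regions was 54.9, 53.8 and 52.7% in the young and 57.2, 54.8, 57.2 and 57.4% in the aged samples (two-sided exact permutation test, p = 0.086, 35 assignments). The genes took 0.661 ± 0.040% of the promoter counts in the young and 0.666 ± 0.025% in the aged samples (SD, n = 3 and 4).

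The fold changes followed the strength of the regions. Of the 67 genes, 34 (50.7%) lay in the strongest 10% of all regions by mean log2 CPM, which held 29.4% of promoter regions, and 16 lay in the next 10%. In the strongest 10% the median log2 fold change was 0.26 over the genes and 0.28 over the 4527 promoter regions there. In the next 10% it was 0.10 over the genes and 0.15 over 3241 promoter regions, then -0.04 over 8 genes against 0.02, and -0.14 over 6 genes against -0.07. Across the 67 genes the log2 fold change correlated with mean log2 CPM at a Pearson r of 0.78, and across all promoter regions at 0.65. Both quantities come from the same libraries and counts, and genes are not independent replicates. The correlation across the genes was 0.35 for the length of the region, 0.25 for the CpG ratio (observed over expected) and 0.10 for GC content.

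**Figure D1:**
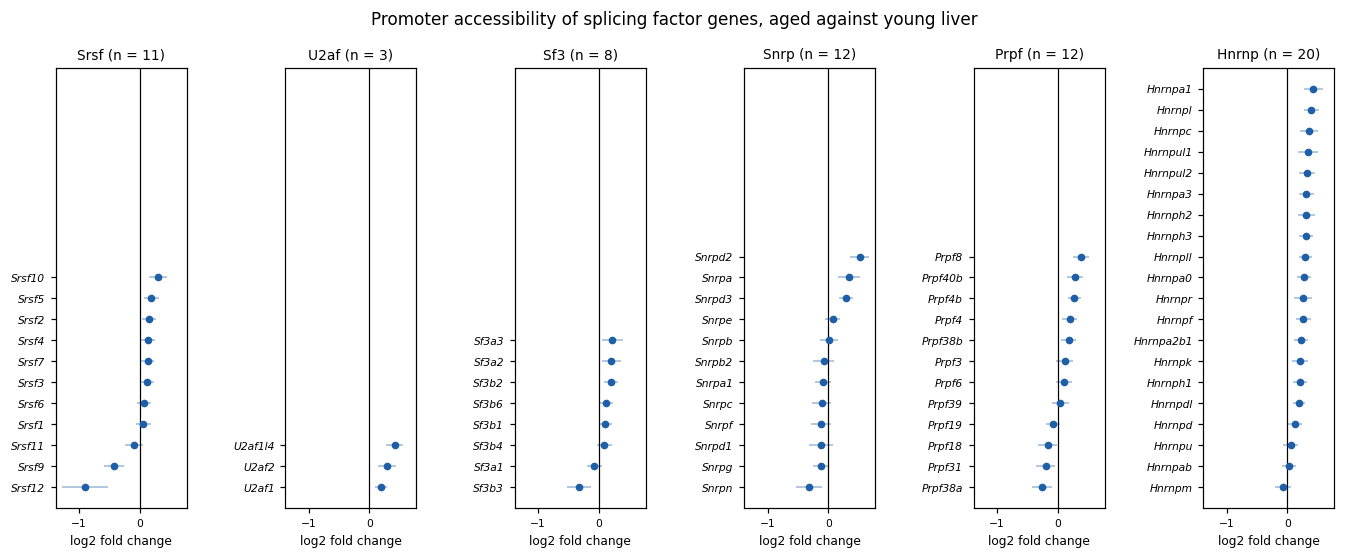
Log2 fold change of promoter accessibility (aged over young) for 66 of the 67 genes, by family, with points for the edgeR estimate and bars for its SE; the line marks 0. In the Hnrnp panel 19 of 20 genes lie above 0 and in the Snrp panel 5 of 12, and with offsets against region strength the Hnrnp median turned from 0.27 to -0.043.

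Among the SR proteins, which bind exonic enhancers and recruit the early spliceosome, 8 of 11 genes had a log2 fold change above 0 and none was higher at an unadjusted p under 0.05. The family median was 0.12, but -0.0024 with total counts, -0.13 with offsets against region strength and 0.08 to 0.15 with 1 sample left out. The strongest per length was Srsf2, encoding SC35, at 45.0 ± 4.8 CPM per kb in the young and 49.9 ± 3.8 CPM per kb in the aged samples (SD, n = 3 and 4). Its level was 104, 92.3 and 84.5 CPM in the young and 102, 93.8, 109 and 112 CPM in the aged samples. Aged replicates 3 and 4 were above all young samples and the groups overlapped (0.15 ± 0.11, SE, adjusted p = 0.46). This region also covers the start of Mfsd11, so the counts belong to both genes.

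Srsf1, the founding SR protein, had 39.3, 37.2 and 32.1 CPM in the young and 42.3, 34.9, 40.2 and 34.2 CPM in the aged samples, with overlapping groups (0.06 ± 0.13, SE, adjusted p = 0.80). Srsf3, the smallest member of the family, had 37.0, 37.7 and 38.8 CPM in the young and 39.0, 37.9, 46.2 and 41.4 CPM in the aged samples. Here 3 of 4 aged samples exceeded every young one (0.12 ± 0.11, SE, adjusted p = 0.56). The highest log2 fold change of the family was that of Srsf10, a splicing repressor when dephosphorylated, at 0.30 ± 0.15 (SE, adjusted p = 0.24), with 3 of 4 aged samples above the young. Srsf11 had 2 promoter regions, with log2 fold changes of -0.10 ± 0.15 and -0.03 ± 0.16 (SE, adjusted p = 0.72 and 0.93).

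The 2 genes that were lower at an unadjusted p under 0.05 were both SR proteins. Srsf9 had 30.4, 27.2 and 27.0 CPM in the young and 24.2, 15.1, 19.4 and 24.4 CPM in the aged samples. All 4 aged samples lay below all young samples (-0.42 ± 0.16, SE, adjusted p = 0.13). Srsf12, a weakly accessible promoter in the weakest 10% of all regions, had 3.15, 3.25 and 1.48 CPM in the young and 1.32, 1.18, 2.57 and 1.15 CPM in the aged samples. Aged replicate 3 lay among the young samples and the other aged samples lay below them (-0.90 ± 0.38, SE, adjusted p = 0.16). The lowest raw count of Srsf12 in a sample was 6, so its level is known less precisely than that of the other genes.

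U2AF binds the polypyrimidine tract and the AG of the 3′ splice site. Its 3 genes had log2 fold changes of 0.19 ± 0.11 (U2af1, adjusted p = 0.28), 0.29 ± 0.15 (U2af2, adjusted p = 0.26) and 0.42 ± 0.14 (U2af1l4, adjusted p = 0.096, with a range of 0.037 to 0.46 over the alternatives; SE in each case), with a median of 0.29 that turned to -0.016 with offsets against region strength and was 0.17 (without young replicate 3) to 0.42 with 1 sample left out. U2af1, the small subunit, had 46.6, 42.7 and 41.4 CPM in the young and 51.5, 48.3, 48.1 and 51.2 CPM in the aged samples, and the groups did not overlap. U2af2, the large subunit and the strongest of the 3 per length, had 99.2, 90.6 and 64.0 CPM in the young and 108, 83.8, 107 and 116 CPM in the aged samples. Young replicate 3 was low and aged replicate 2 lay below young replicates 1 and 2. U2af1l4, a paralogue of the small subunit whose region is shared with Psenen and Gm49396, had 42.4, 42.2 and 30.1 CPM in the young and 56.2, 42.0, 54.6 and 52.4 CPM in the aged samples, with aged replicate 2 inside the young range.

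The SF3A and SF3B complexes belong to the U2 snRNP and hold it at the branch point. Of 8 genes with a region, 6 were above 0, and the median of 0.11 turned to -0.0036 with total counts and -0.025 with offsets against region strength, and was 0.07 to 0.16 with 1 sample left out. Sf3b1, the largest SF3B subunit, had 41.6, 40.5 and 36.8 CPM in the young and 43.1, 38.6, 46.5 and 43.3 CPM in the aged samples. Aged replicates 1, 3 and 4 exceeded the young samples (0.11 ± 0.11, SE, adjusted p = 0.59). The highest value was that of Sf3a3, at 0.22 ± 0.17 (SE, adjusted p = 0.45), and Sf3a2, the strongest per length, had 0.21 ± 0.16 (SE, adjusted p = 0.45). Both genes below 0 share their region with a neighbour: Sf3a1 (-0.07 ± 0.12, SE, adjusted p = 0.76) with Ccdc157, and Sf3b3 with Cog4. Sf3a2, which was above 0, also shares its region, with Plekhj1. Sf3b3 had 21.5, 19.6 and 25.7 CPM in the young and 18.5, 18.4, 22.4 and 11.8 CPM in the aged samples. Aged replicate 3 lay inside the young range and the other 3 below it (-0.33 ± 0.19, SE, adjusted p = 0.32).

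Sf3b5, a small SF3B subunit, was the gene without a promoter region. Its start in GENCODE M21 lies on chromosome 10 at 13005343, and RefSeq places the start 3107 bp further on, at 13008450. The region at chr10:13007943-13009038 (GRCm38) covers the RefSeq start. It had 29.3, 31.9 and 28.3 CPM in the young and 35.4, 32.4, 29.7 and 31.6 CPM in the aged samples, with overlapping groups (0.11 ± 0.12, SE, adjusted p = 0.60).

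The Snrp genes encode the Sm ring proteins and proteins particular to the U1 and U2 snRNPs. Their median was -0.083, the lowest of the 6 families, with 5 of 12 genes above 0 (Snrpd2, Snrpa, Snrpd3, Snrpe and Snrpb), and it was -0.20 with total counts, 0.00067 with GC offsets and 0.028 without aged replicate 4. With offsets against region strength it was -0.11, and the Srsf median (-0.13) was then the lowest. Snrpd2, an Sm ring protein, had the highest log2 fold change of all 67 genes. Its level was 61.0, 56.2 and 35.5 CPM in the young and 80.1, 60.6, 73.5 and 78.3 CPM in the aged samples. Young replicate 3 was low, and aged replicate 2 lay just under young replicate 1 (0.51 ± 0.16, SE, adjusted p = 0.075, and 0.042 with DESeq2, where the range over all alternatives was 0.027 to 0.39). The region also covers the start of Qpctl.

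Snrpa, the U1 snRNP protein that binds a stem-loop of U1 RNA, was the strongest Snrp gene per length over all samples. Its mean was 53.2 CPM per kb, next to 53.0 CPM per kb at Snrpd3. It had 46.0 ± 11.5 CPM per kb in the young and 58.6 ± 11.3 CPM per kb in the aged samples (SD, n = 3 and 4). Snrpd3 was higher in the young (47.0 CPM per kb) and Snrpd2 in the aged samples (58.7 CPM per kb). The level of Snrpa was 67.9, 62.5 and 40.9 CPM in the young and 77.0, 53.9, 72.6 and 87.4 CPM in the aged samples. The groups overlapped, with aged replicate 2 between the young samples (0.34 ± 0.18, SE, adjusted p = 0.25). Snrpd3, an Sm ring protein, was the 1 Snrp gene at which each aged sample exceeded each young one (0.29 ± 0.12, SE, adjusted p = 0.14, with a range of 0.033 to 0.62 over the alternatives), and its region also covers the start of Gucd1. Snrpe had 0.07 ± 0.13 (SE, adjusted p = 0.77) and Snrpb, another ring protein, had 23.2 ± 3.1 CPM in the young and 23.2 ± 2.3 CPM in the aged samples (SD, n = 3 and 4), with the aged samples inside the young range (0.01 ± 0.14, SE, adjusted p = 0.97). The lowest of the family was Snrpn, the imprinted SmN gene, whose region is shared with Snurf and Gm38393. It had 9.35, 10.2 and 8.39 CPM in the young and 7.64, 6.67, 9.81 and 6.36 CPM in the aged samples, and 3 of 4 aged samples lay below the young (-0.32 ± 0.21, SE, adjusted p = 0.38).

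PRPF proteins belong mostly to the U4/U6.U5 tri-snRNP and to the complex around PRPF19. Among its 13 genes, 9 were above 0, and the median of 0.11 turned to -0.0083 with total counts and -0.041 with offsets against region strength, and was 0.05 to 0.17 with 1 sample left out. Prpf8, the U5 protein at the catalytic core of the spliceosome, had 24.3, 26.8 and 24.5 CPM in the young and 32.1, 29.4, 36.4 and 34.2 CPM in the aged samples. The groups did not overlap (0.38 ± 0.13, SE, adjusted p = 0.082, with a range of 0.040 to 0.33 over the alternatives).

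Prpf19, a ubiquitin ligase that gives its name to a spliceosomal complex, had 47.0, 41.7 and 42.4 CPM in the young and 44.6, 37.9, 42.3 and 40.1 CPM in the aged samples, with overlapping groups (-0.08 ± 0.11, SE, adjusted p = 0.69). Prpf6 had 2 promoter regions, with log2 fold changes of 0.10 ± 0.13 and -0.18 ± 0.14 (SE, adjusted p = 0.68 and 0.47). The remaining genes below 0 were Prpf18 (-0.17 ± 0.15, SE, adjusted p = 0.53), Prpf31 (-0.20 ± 0.15, SE, adjusted p = 0.44) and Prpf38a (-0.26 ± 0.16, SE, adjusted p = 0.34). Prpf31, a U4/U6 protein whose region is shared with Tfpt, had 19.1, 18.9 and 18.6 CPM in the young and 18.1, 14.1, 15.2 and 17.7 CPM in the aged samples, all below the young. Prpf38a, whose region is shared with Orc1, had 3 of 4 aged samples below the young.

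The hnRNPs coat nascent transcripts and often repress splice sites. They had the most accessible promoters, with a median of 42.6 CPM per kb against 31.8 CPM per kb over all 67 genes, and 18 of 20 lay in the strongest 10% of all regions. Of the 20 genes, 19 were above 0 and 9 were higher at an unadjusted p under 0.05 (45.0%, against 23.0% of all promoter regions and 54.8% of those in the strongest 10%), with a median of 0.27 that was 0.15 with total counts, 0.19 to 0.33 with 1 sample left out, and turned to -0.043 with offsets against region strength. Promoter regions of the same strongest 10% had a median of 0.28, with 95.1% of them above 0. The 1 gene below 0 was Hnrnpm, at -0.08 ± 0.13 (SE, adjusted p = 0.76).

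Hnrnpl, which binds CA repeats, had the lowest adjusted p of the 67 genes. Its level was 116, 108 and 102 CPM in the young and 134, 120, 153 and 165 CPM in the aged samples. Every aged sample was above every young one, aged replicate 2 by the least (0.40 ± 0.12, SE, adjusted p = 0.073, with a range of 0.024 to 0.90 over the alternatives). The log2 fold change of Hnrnpl ran from 0.031 to 0.47 over the same alternatives. Hnrnpa1, a shuttling repressor of exons, had the highest fold change of the family. It had 90.1, 78.7 and 54.3 CPM in the young and 98.7, 87.5, 103 and 113 CPM in the aged samples. Young replicate 3 was low and aged replicate 2 lay below young replicate 1 (0.43 ± 0.15, SE, adjusted p = 0.10, with a range of 0.031 to 0.64 over the alternatives), and the region is shared with Cbx5. Hnrnpk, a poly(C)-binding protein whose region is shared with Rmi1, had 93.6, 88.5 and 72.2 CPM in the young and 95.2, 79.8, 105 and 113 CPM in the aged samples, with overlapping groups (0.21 ± 0.13, SE, adjusted p = 0.36).

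Hnrnpul2, whose region is shared with Ttc9c, was the strongest hnRNP gene per length, at 45.8 ± 5.7 CPM per kb in the young and 57.3 ± 8.4 CPM per kb in the aged samples (SD, n = 3 and 4; 0.32 ± 0.13, SE, adjusted p = 0.15, 3 of 4 aged samples above the young). A further 3 hnRNP genes had a second promoter region. At Hnrnpu, a nuclear scaffold protein, the log2 fold change was 0.05 ± 0.13 at the stronger and 0.36 ± 0.13 at the weaker region (SE, adjusted p = 0.84 and 0.10). At Hnrnpf it was 0.26 ± 0.12 and 0.33 ± 0.15 (SE, adjusted p = 0.21 and 0.18), and the weaker region of Hnrnpm had 0.31 ± 0.24 (SE, adjusted p = 0.45). With the mean over all promoter regions of a gene, the median over the 67 genes was 0.18.

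**Figure D2:**
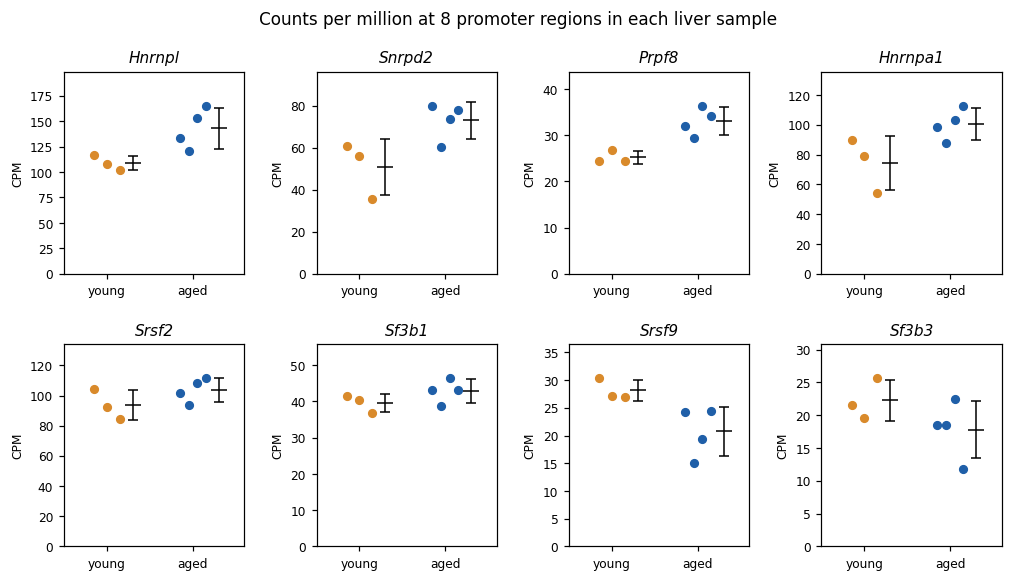
CPM at the promoter regions of 8 genes in each young (3 samples) and aged (4 samples) liver; points are samples, and bars at their right are the mean and SD. At Hnrnpl and Prpf8 all aged samples lie above the young and at Srsf9 all lie below, while at Srsf2, Sf3b1 and Sf3b3 the groups overlap.

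Several features that the rule did not use were set beside those of other regions. The regions of the genes were longer than promoter regions in general (median 1662 against 1233 bp), with a CpG ratio of 0.83 against 0.65. Their median GC content was 57.8% (range 48.6 to 71.3%) against 57.2%. Promoter regions in the strongest 10% of all regions had medians of 1779 bp, 0.71 and 58.9%. The 134 other splicing genes outside these families had medians of 1332 bp and a CpG ratio of 0.81, so these features were not particular to the 67 genes. For 24 of the 67 genes the region also covered the start of another protein-coding gene, and the share over all promoter regions was not counted. The median log2 fold change was 0.21 over these 24 and 0.11 over the 43 others. The 24 regions were also stronger, with a median of 5.95 in mean log2 CPM against 5.38 over the 43 others. The fold changes followed the strength of the regions, and the part of strength in this difference was not tested. None of the promoter regions of the 67 genes matched another place in the genome over 80% of its length at 95% identity. RefSeq promoters, from 250 bases before to 50 after a start, were matched by symbol for 59 genes, with 80 promoters in all.

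Motifs were searched on both strands in these windows. The GC box bound by Sp1 and KLF factors (GGGCGG) was found in 63.8% of the 80 promoters, against 46.2% of 21263 promoters of protein-coding genes and 35.7% of all 32851 promoters in the table. It ranged from 35.7% of 14 Snrp and 42.9% of 14 Prpf promoters, both under the 46.2%, to 92.9% of 14 Srsf promoters. The ETS core (CCGGAAG) was found in 31.3%, against 11.6% and 8.86%, and ranged from 0% of 3 U2af promoters to 87.5% of 8 Sf3 promoters. The CCAAT box (CCAAT) was found in 47.5%, against 38.2% and 37.4%, and ranged from 28.6% in the Srsf and Snrp families to 66.7% of 3 U2af promoters. The MYC E-box (CACGTG) was found in 13.8%, against 7.84% and 7.15%, the NRF1 half-site (GCGCATG) in 8.75%, against 4.80% and 3.91%, and the YY1 core (GATGGCGG) in 6.25%, against 2.27% and 1.70%. The TATA box (TATAAA) was found in 8.75%, against 12.6% and 13.6%, and the CRE (TGACGTCA) in 2.50%, against 2.23% and 1.79%. Alternative starts of a gene can lie within the same window, so these promoters are not independent, and a match is not a bound site.

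The stretches before the start are shown for 4 genes, 1 with the highest fold change of the hnRNPs, 1 tri-snRNP gene whose groups did not overlap, 1 SR gene that was lower in every aged sample and 1 SF3 gene with an ETS core. They are RefSeq promoters of GRCm38.p6 on the plus strand, free of annotated exons, and capitals mark the motifs named above. Hnrnpa1 is at chr15:103240147-103240396, with 4 CCAAT boxes and 2 GC boxes. Prpf8 is at chr11:75486527-75486776, with 2 CCAAT boxes, the second on the minus strand. Srsf9 is at chr5:115326927-115327176, with 3 GC boxes on the minus strand. Sf3b6 is at chr12:4817358-4817543, with 2 GC boxes and an ETS core that directly follows the second of them, all on the minus strand, and had a log2 fold change of 0.12 ± 0.12 (SE, adjusted p = 0.57).
Hnrnpa1: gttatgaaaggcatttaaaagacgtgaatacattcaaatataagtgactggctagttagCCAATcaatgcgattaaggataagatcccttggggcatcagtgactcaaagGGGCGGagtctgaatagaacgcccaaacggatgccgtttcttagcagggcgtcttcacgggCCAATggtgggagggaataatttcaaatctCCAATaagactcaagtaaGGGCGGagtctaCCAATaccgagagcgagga
Prpf8: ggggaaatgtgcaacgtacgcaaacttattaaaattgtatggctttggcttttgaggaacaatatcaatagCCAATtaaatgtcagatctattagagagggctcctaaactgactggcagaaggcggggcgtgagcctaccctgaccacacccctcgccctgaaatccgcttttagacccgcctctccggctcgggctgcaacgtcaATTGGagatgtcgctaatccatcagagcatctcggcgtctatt
Srsf9: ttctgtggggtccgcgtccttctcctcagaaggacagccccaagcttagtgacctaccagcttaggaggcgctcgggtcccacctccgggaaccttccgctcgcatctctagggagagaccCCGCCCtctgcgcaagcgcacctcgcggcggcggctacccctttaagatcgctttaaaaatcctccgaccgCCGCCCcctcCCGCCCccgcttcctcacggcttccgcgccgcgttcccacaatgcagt
Sf3b6: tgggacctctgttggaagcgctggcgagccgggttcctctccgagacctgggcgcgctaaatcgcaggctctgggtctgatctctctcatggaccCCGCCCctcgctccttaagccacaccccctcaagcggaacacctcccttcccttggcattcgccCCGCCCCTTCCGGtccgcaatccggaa

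Inside 16 of the genes lay 31 further regions that were not promoter regions by the GENCODE starts, among them the Sf3b5 region at the RefSeq start. Their median log2 fold change was -0.21, against -0.04 over all regions and -0.19 over the 5568 regions of the strength band that holds their median, and 10 were above 0. The adjusted test called 2 of the 31, both lower in aged liver, where 3.30% of all regions were called lower and 2.44% higher. In Hnrnpll, a paralogue of Hnrnpl, the region at chr17:80051635-80051898 overlaps an exon. It had 4.54, 4.04 and 3.95 CPM in the young and 2.11, 1.57, 0.700 and 1.27 CPM in the aged samples, with no overlap (-1.46 ± 0.33, SE, adjusted p = 0.023). The lowest raw count there was 3. In Srsf4 the region at chr4:131888339-131889115 lies in an intron. It had 7.04, 7.03 and 7.40 CPM in the young and 3.69, 4.51, 3.27 and 3.18 CPM in the aged samples, again with no overlap (-0.97 ± 0.23, SE, adjusted p = 0.031). Both calls were lost without aged replicate 3 (adjusted p = 0.066 and 0.086), young replicate 1 (0.093 and 0.103) or young replicate 2 (0.082 and 0.102), and that of Srsf4 also without aged replicate 1 (0.083) or young replicate 3 (0.059). Over the alternatives the Hnrnpll region was called in 17 of 21 fits and the Srsf4 region in 14 of 22, and offsets against region strength ended both calls (adjusted p = 0.12 and 0.12). The log2 fold change stayed within -1.78 to -1.06 at the Hnrnpll region and -1.21 to -0.74 at the Srsf4 region. Of the 31 regions, 2 were higher (6.45%) and 4 lower (12.9%) in every aged than in every young sample, against 10.2% and 11.6% of all regions. The promoter regions of the same genes had log2 fold changes of 0.30 ± 0.11 (Hnrnpll, adjusted p = 0.12) and 0.13 ± 0.12 (Srsf4, SE, adjusted p = 0.52).

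Of 135 other splicing genes outside these families, 134 had a promoter region (Esrp1 had none). Their median log2 fold change was 0.13, with 101 above 0, and 5 passed the adjusted test, all higher in aged liver, against 4.48% of promoter regions. Ppil1, a cyclophilin of the activated spliceosome, had 38.5, 34.4 and 31.9 CPM in the young and 47.4, 49.4, 47.4 and 53.6 CPM in the aged samples (0.50 ± 0.11, SE, adjusted p = 0.026). The others were Taf15, an RNA-binding protein (0.42 ± 0.10, SE, adjusted p = 0.033), Luc7l2 of the U1 snRNP (0.53 ± 0.14, SE, adjusted p = 0.042), Ptbp3 of the polypyrimidine tract proteins (0.42 ± 0.11, SE, adjusted p = 0.044) and Lsm10 of the U7 snRNP (0.47 ± 0.13, SE, adjusted p = 0.048). At each of the 5, every aged sample exceeded every young one. The region of Ppil1 had a CpG ratio of 0.22, against a median of 0.81 over the 134 genes. Of 22 alternatives, 15 called Ppil1, 10 called Taf15, 7 called Luc7l2, 7 called Ptbp3 and 4 called Lsm10. The lowest log2 fold changes were those of Gemin5, which delivers snRNA to the SMN complex (-0.56 ± 0.16, SE, adjusted p = 0.059), and Snu13 of the U4 snRNP (-0.56 ± 0.16, SE, adjusted p = 0.051), both lower in every aged sample. Over the alternatives their adjusted p ranged from 0.029 to 0.18 and from 0.029 to 0.16, and each was called in 4 of 22. The count of 5 became 0 without aged replicate 1, aged replicate 3, young replicate 1 or young replicate 2, 3 without aged replicate 4 or young replicate 3, and 8 without aged replicate 2. It was 14 with DESeq2, 12 with limma voom and 20 with GC offsets. Those fits called 4.96%, 3.95% and 6.28% of all regions higher, against 2.44% in edgeR's test above. The count was 0 with total counts or with offsets against region strength. It was 4 when only the starts of protein-coding transcripts were used.

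By sublist, the genes called were 1 of 25 among further snRNP proteins, 1 of 10 among Sm-like proteins, 1 of 37 among factors of the PRPF19 complex and of the catalytic steps, 2 of 32 among regulators of alternative splicing, and 0 of 5 in the exon junction complex, 0 of 11 among SR-related proteins and kinases and 0 of 14 in snRNP assembly. At an unadjusted p under 0.05 in edgeR's test these 7 lists, in the same order, had 6, 3, 11, 14, 0, 3 and 2 higher and 3, 0, 0, 0, 1, 0 and 3 lower genes, where 23.0% of promoter regions were higher and 9.13% lower. The median log2 fold change ranged from -0.15 in the exon junction complex to 0.23 among regulators of alternative splicing.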

How the data were processed

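ATAC-seq libraries of liver nuclei were trimmed with cutadapt 1.13, aligned to GRCm38 with Bowtie2 2.4.1, and peaks were called with MACS2 2.2.7, per the submitters' processing notes and methods. The authors merged peaks found in at least 2 samples and deposited a raw count per region from featureCounts. No normalization had been applied to the deposited counts.

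All 55680 regions were fitted with edgeR 4.0.16 (R 4.3.3; TMM factors, glmQLFit and glmQLFTest, age as the only factor, no filter), with Benjamini-Hochberg adjustment over all regions, a threshold of 0.05 and SEs from the fit. CPM use TMM-scaled totals, and log2 CPM a prior count of 2. The other tools were DESeq2 1.42.0, limma 3.58.1 (voom) and minimap2 2.31-r1302 for copies. The script was tested on simulated data. The alternatives were other scalings (total counts, loess offsets on region strength or GC content), filters, thinning, summed aged pairs, omission of each sample, a replicate block, promoter windows, starts of protein-coding transcripts only and a threshold of 0.01.

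The genes and all lists were chosen with earlier results of these data known. Genes named were those past the threshold, the highest and lowest fold change and the highest CPM per kb of each family, genes with no or several regions, 14 genes by role (1 Prpf gene that met these rules is not shown), and, of the other splicing genes, the 5 with the lowest adjusted p and 2 with the lowest fold change. Srsf9, Prpf18, Prpf31, Snrpe, Snrpd3, Sf3b6, the marker genes with values and the 2 regions within genes were singled out after their values were seen. The start and end of a region were read as inclusive positions counted from 1.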

Additional observations from a re-analysis of the deposited data

Results flagged for a closer look

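In the aged group, 3 of 54 values tested had 1 sample far from the others by Dixon's test, which sets the gap to the nearest sample against the whole range of the 4 samples. Chance alone marks about 1 in 20 such groups. At Srsf12 the share was 0.833, where aged replicate 3 had 1.47 in log2 CPM and the 3 others 0.42 to 0.60. At Snrpe it was 0.853, with aged replicate 2 at 5.09 and the others at 5.40 to 5.45. For the share of counts in promoter regions it was 0.912, with aged replicate 2 at 54.8% and the others at 57.2 to 57.4%, where the young samples had 52.7 to 54.9%.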

How the results depend on the processing

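With 3 and 4 samples, SEs of the log2 fold changes of the 67 genes ran from 0.10 to 0.38. In simulated data of this size 52.5% of 200 regions with 2-fold changes were recovered. These were drawn from regions of the whole table above a minimum mean count. In the real data the median SE was 0.23 over all regions and 0.13 over the 67 genes. The share recovered was not measured for regions as strong as those of the genes. The cause of the changes below was not tested. The count of splicing factor genes called higher, 0, was 2 with DESeq2, 9 with GC offsets, 1 with limma voom, 1 with aged replicates 2 and 4 summed, and 0 to 1 when 1 sample was left out. In all other settings it was 0.

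The labels share replicate numbers, but same-numbered samples correlated at -0.119, 0.0565 and 0.0298 in their deviations, so the numbers do not pair them. With a replicate block 1 gene was called lower (Srsf9, adjusted p = 0.049) where none was before, 2 other splicing genes were called higher in place of 5, and the Snrp median was 0.021.

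The median over the 67 genes, 0.15, was 0.027 with total counts and -0.069 with offsets against region strength. The count of other splicing genes, 5, was 14 with DESeq2, 20 with GC offsets, 12 with limma voom, 0 with either of the other scalings or at a threshold of 0.01, 1 with the filter of 10 counts, 2 with thinning, 0, 2, 1, 12 and 1 with aged replicates 1 and 3, 1 and 4, 2 and 3, 2 and 4, and 3 and 4 summed, and 0 to 8 with 1 sample left out. With starts of protein-coding transcripts only, that count was 4. The numbers of higher and lower regions, 1360 and 1838, ran from 55 to 1630 and from 133 to 2600 with 1 sample left out. Higher regions numbered 2760 with DESeq2, 3497 with GC offsets, 246 with offsets against region strength, 2197 with limma voom, 890 with thinning, 543 with total counts, 525 with the filter, 50 at 0.01, and 269, 699, 2164 and 727 with aged replicates 1 and 3, 2 and 3, 2 and 4, and 3 and 4 summed. Lower regions numbered 413 with offsets against region strength, 2931 with total counts, 1108 with thinning, 802 with the filter, 123 at 0.01, and 693 and 1107 with aged replicates 1 and 3 and 2 and 3 summed.

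With offsets against region strength, medians turned to -0.13 (Srsf), -0.025 (Sf3), -0.043 (Hnrnp), -0.041 (Prpf) and -0.016 (U2af), and log2 fold changes to -0.058 at Hnrnpf, -0.10 at Hnrnpk, -0.24 at Hnrnpu, -0.037 at Hnrnpul2, -0.075 at Prpf6, -0.013 at Sf3a2, -0.080 at Sf3b1, -0.021 at Sf3b6, -0.069 at Snrpb, -0.096 at Snrpd3, -0.11 at Snrpe, -0.11 at Srsf1, -0.17 at Srsf2, -0.066 at Srsf3, -0.016 at U2af1 and -0.022 at U2af2. With total counts they turned to -0.0024 (Srsf median), -0.0036 (Sf3 median), -0.0083 (Prpf median), -0.067 at Hnrnpu, -0.020 at Prpf6, -0.0091 at Sf3b1, -0.10 at Snrpb, -0.051 at Snrpe, -0.055 at Srsf1 and -0.0024 at Srsf3. With GC offsets they turned to 0.00067 (Snrp median), 0.025 at Prpf19 and 0.031 at Sf3a1, with thinning to 0.0099 at Hnrnpm, -0.079 at Srsf1 and 0.038 at Srsf11, and at Snrpb to -0.017 with aged replicates 1 and 2 summed and -0.026 with the filter. With 1 sample left out, the ranges that crossed 0 among the family medians and the genes named here were -0.086 to 0.028 (Snrp median), -0.022 to 0.15 (Hnrnpu), -0.11 to 0.017 (Sf3a1), -0.057 to 0.12 (Snrpb) and -0.00097 to 0.13 (Srsf1). Srsf12 and the called region in Hnrnpll did not pass the filter of 10 counts.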
